A study of Mus musculus with 6 samples.

Results

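The genes described here are 10 chemokine ligands, among them Pf4, whose transcripts were counted in microglia, the resident macrophages of the brain. They were chosen by name: Ccl2, Ccl3, Ccl4, Ccl5, Ccl6, Ccl9, Ccl12, Cxcl10, Cxcl16 and Pf4. All 10 were found among the 49585 genes listed in the count files, and all 10 were among the 11041 genes with enough counts to be tested. The libraries came from 2 groups of male mice aged 3 months, 3 labelled WT (wild type) and 3 labelled IRF8KO, a knockout of the transcription factor IRF8. The labels name no strain, allele, Cre driver or treatment. Microglia were taken from each brain without enzymes and sorted by flow cytometry, so each library is a bulk sample, in which fewer cells of a kind and less RNA per cell cannot be told apart.

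Chemokines are small secreted proteins that guide cells bearing matching G-protein-coupled receptors. The CC and CXC families are named for the spacing of their first cysteines, and many of their genes sit side by side in clusters that arose by duplication. Some are made by resting macrophages, such as Ccl6, Ccl9, Cxcl16 and Pf4, and these are called constitutive here. Others, here Ccl2, Ccl3, Ccl4, Ccl5, Ccl12 and Cxcl10, are induced within a short time by NF-kB, AP-1 or interferon signalling, and Ccl3 and Ccl4 in particular are known to be switched on in microglia while the cells are being isolated. Pf4 (platelet factor 4, also called Cxcl4) is best known from the granules of platelets and is also made by macrophages at the borders of the brain.

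Gene counts summed to between 3658917 and 11098363 per library. Irf8 itself did not tell the groups apart: it had 4084, 12022 and 10179 counts in WT replicates 1, 2 and 3 and 4628, 7243 and 7834 in IRF8KO replicates 1, 2 and 3 (log2 fold change −0.44, SE 0.33, edgeR quasi-likelihood test, adjusted p = 0.368 by the Benjamini-Hochberg method, BH). Counts per gene cannot show a missing exon, so each direction below is drawn from the libraries labelled IRF8KO. Of 12 microglial markers, all were tested, 5 were lower and 1, Fcrls, was higher in IRF8KO (9.46% and 9.64% of all genes tested), and Csf1r, Tmem119 and C1qa were the most abundant. P2ry12, a purinergic receptor that marks resting microglia, fell from 848 ± 384 to 48.4 ± 44.8 CPM, and Fcrls, an Fc receptor-like gene, rose from 2622 ± 652 to 6669 ± 1188 CPM (SD, n = 3), both chosen after their values were seen. Summed over the list, most of it from the abundant genes, the markers reached between 44919 and 76982 CPM in WT and between 37031 and 52116 CPM in IRF8KO, where CPM is the count scaled to a common library total with TMM factors. Sall1, a transcription factor that marks microglia, was at 0 counts in all IRF8KO libraries.

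A pair of libraries stood apart from the others of their group. WT replicate 3 had far less of the immediate early and handling genes than WT replicates 1 and 2, with a summed level over the list of 26 such genes of 1010 CPM against 6660 and 12714 CPM, while IRF8KO libraries had 1283, 1039 and 1146 CPM. IRF8KO replicate 2 held 3913 counts of the neutrophil genes S100a8, S100a9, Ngp, Camp and Ltf, against at most 5 in any other library. Values without these libraries are given where they change a result. The share of all genes that was called also moved: 18.1% were higher and 15.4% lower without WT replicate 3, 5.32% and 4.95% with it as the only WT library, 5.54% and 4.91% without WT replicate 2, and 8.42% and 9.14% without IRF8KO replicate 2.

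Of the 10 chemokines, 3 were higher and 5 lower in IRF8KO, and 2 did not pass the test (edgeR quasi-likelihood, BH-adjusted p under 0.05 over all tested genes). Over all 11041 genes tested, 19.1% were called, 9.64% higher and 9.46% lower. The groups of 3 libraries did not overlap for 5 of the 10 chemokines, against 37.9% of all genes tested. The 4 constitutive genes split evenly, with Pf4 and Cxcl16 higher and Ccl6 and Ccl9 lower, and none of the 4 had overlapping groups. Of the 6 inducible genes, Ccl5 was higher, Ccl2, Ccl3 and Ccl4 were lower, and Ccl12 and Cxcl10 were not called. The median log2 fold change was −1.38 over the 10 genes, against −0.11 over all genes tested. Scaling by library size alone moved the median of all genes to −0.61 and the higher share of all calls from 50.5% to 25.4%, and it left the 8 calls and their directions in place.

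**Figure D1:**
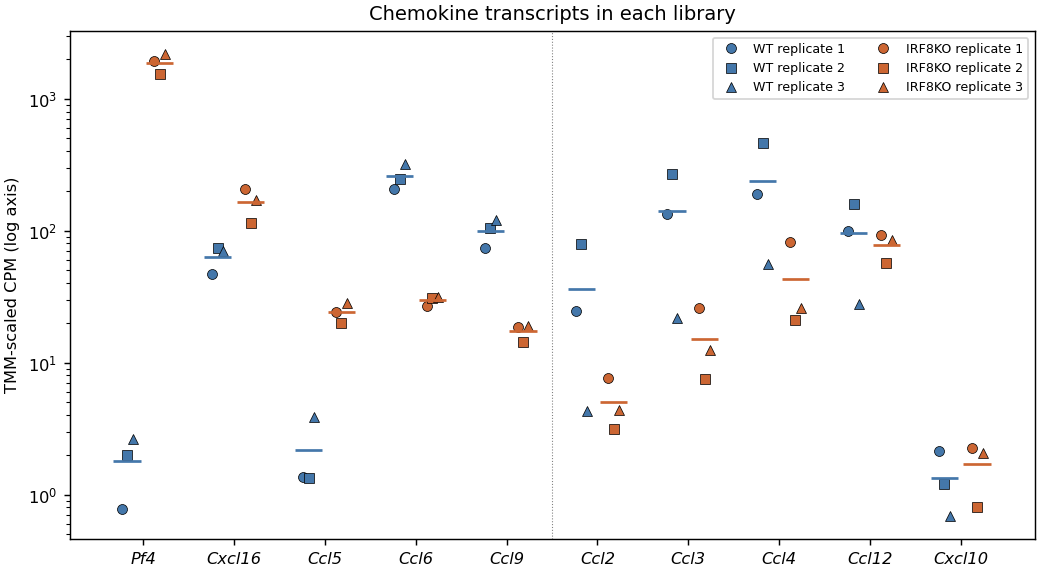
Scaled CPM of the 10 chemokine transcripts (log axis) in the 3 WT and 3 IRF8KO libraries, with horizontal bars at the group means and a dotted line between the 5 genes without and the 5 genes with overlapping groups. Pf4 rose from a mean of 1.79 to 1881 CPM, and WT replicate 3 (blue triangle) lies among the IRF8KO values for Ccl2, Ccl3 and Ccl4.

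Pf4 rose the most of the 10. It had 4, 28 and 19 counts in WT replicates 1, 2 and 3, and 12067, 17114 and 20022 counts in IRF8KO replicates 1, 2 and 3. In CPM this was 0.778, 1.98 and 2.62 in WT and 1937, 1536 and 2171 in IRF8KO. Every IRF8KO library thus lay far above every WT library, and the IRF8KO libraries lay close together. The means were 1.79 ± 0.935 and 1881 ± 321 CPM (SD, n = 3 each), a 1049-fold difference and a log2 difference of 9.97 (SE 0.52, edgeR quasi-likelihood, BH-adjusted p = 1.1e-06). Without WT replicate 3 the log2 fold change was 10.23, without IRF8KO replicate 2 it was 10.11, and with WT replicate 3 as the only WT library it was 9.48. The gene (ENSMUSG00000029373) lies on chromosome 5 at 90772435 to 90773383 of GRCm38, plus strand, and shares no exon with another gene.

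Since platelets hold much Pf4 transcript, markers of platelets and megakaryocytes were read beside it. Of 13 such genes only Thbs1 and Gp9 had enough counts to be tested. Ppbp, the platelet chemokine whose gene lies next to Pf4, had 5, 26 and 10 counts in the IRF8KO libraries and 0 in WT, which is 0.0414%, 0.152% and 0.0499% of the Pf4 counts of the same libraries. Gp6 and F5 were at 0 counts in all 6 libraries, and Itga2b and Gp1ba had at most 10 counts in any. Tubb1 had 0, 1 and 0 counts in WT and 0, 0 and 17 in IRF8KO. Clec1b had 0, 5 and 0 in WT and 1, 2 and 11 in IRF8KO, whereas Treml1 had 4, 21 and 5 in WT and 1, 1 and 6 in IRF8KO. Gp9 lay between 29.4 and 58.9 CPM in every library and was not called, whereas Thbs1, which macrophages also make, rose from 6.01 ± 2.71 to 114 ± 50.5 CPM (SD, n = 3). The list summed to between 40.5 and 62.9 CPM in WT and between 107 and 202 CPM in IRF8KO, and Thbs1 made up most of the latter. Whether platelets had a part in the Pf4 result was not tested.

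Markers of border-associated macrophages were also read beside Pf4. Of 12 such genes other than Pf4, 8 had enough counts to be tested and were called higher, beside 9.64% of all genes tested. Some of them had enough counts in IRF8KO only, such as Cd163 and F13a1 at 0 counts in every WT library, so that count was in part set by the filter. The most abundant were Stab1, Ms4a7 and Siglec1, and the sum over all 12 lay between 611 and 833 CPM in WT and between 2286 and 3102 CPM in IRF8KO. Lyve1 and Cd209f, which define some of these cells, were at 0 counts in all libraries, and Folr2 had at most 2 counts in any. The part of such cells in the Pf4 result was not tested. The transcripts whose pattern over the 6 libraries was most like that of Pf4, by root mean square distance of centred log2 CPM among 6034 genes, were Apoc4 (distance 0.32), Apoc1 (0.46) and Gdf3 (0.73). Apoc1 and Apoc4 encode apolipoproteins, and Gdf3 encodes a growth factor of the TGF-beta family. All 3 genes, like Pf4, were near 0 in WT.

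The CXC genes around Pf4 did not reach its level. In the cluster of 7 chemokine genes on chromosome 5 that holds it, Cxcl5, Cxcl3 and Cxcl15 were at 0 counts in all libraries. Cxcl1 and Cxcl2, which attract neutrophils, had 21, 9 and 17 and 26, 59 and 16 counts in the IRF8KO libraries. Cxcl1 was at 0 in WT and was not tested, and Cxcl2, with 0, 14 and 0 counts in WT, was not called (log2 fold change 3.18, SE 1.13, edgeR quasi-likelihood, BH-adjusted p = 0.070). Pf4 thus held nearly all counts of this cluster in IRF8KO.

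The 250 bases before the RefSeq start site of Pf4 (chr5:90772185-90772434, plus strand, GRCm38.p6) are printed here. Among the 10 chemokines, its transcript differed most. Capitals mark the PU.1 core GAGGAAGT, which is read on the opposite strand. PU.1 is the ETS factor of macrophages with which IRF8 binds DNA.
Pf4: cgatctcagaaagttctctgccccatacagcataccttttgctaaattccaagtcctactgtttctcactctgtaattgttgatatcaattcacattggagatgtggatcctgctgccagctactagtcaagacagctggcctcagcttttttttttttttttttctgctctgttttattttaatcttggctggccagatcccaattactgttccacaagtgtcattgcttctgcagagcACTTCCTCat
That match, from 10 to 3 bases before the start, was the only one in this window among the motifs searched on both strands. These were the interferon-stimulated response element (GAAA, 2 bases of any kind, GAAA), the ETS-IRF composite element (GGAA, 2 bases of any kind, GAAA), AP-1 (TGANTCA), the NF-kB consensus, a GATA element (AGATAA), the PU.1 core and the TATA box (TATAAA). The first 2 overlap in their letters. Over 32851 RefSeq windows of 250 bases, the PU.1 core was found in 2.44%, the response element in 2.98%, the composite element in 2.30%, AP-1 in 6.75%, NF-kB in 7.25%, the GATA element in 9.99% and the TATA box in 12.4%. Upstream sequences matched 6 of the 10 genes, namely Ccl3, Ccl6, Ccl9, Ccl12, Cxcl10 and Pf4. A match is a description of the letters and shows no binding.

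Cxcl16, a transmembrane chemokine that is released by shedding and whose receptor is Cxcr6, was modestly higher in IRF8KO. Its levels were 47.3, 73.5 and 69.6 CPM in WT replicates 1, 2 and 3 and 206, 114 and 171 CPM in IRF8KO replicates 1, 2 and 3. The groups did not overlap, and IRF8KO replicate 2 was the lowest of its group. The means of 63.5 ± 14.2 and 164 ± 46.7 CPM (SD, n = 3) gave a log2 difference of 1.36 (SE 0.31, edgeR quasi-likelihood, BH-adjusted p = 0.011). The call was lost without WT replicate 1, IRF8KO replicate 1 or IRF8KO replicate 3, with the log2 fold change at 1.18, 1.18 and 1.34 and adjusted p of 0.050, 0.064 and 0.062 by the same test. With WT replicate 3 as the only WT library the log2 fold change was 1.23. The gene (ENSMUSG00000018920, chromosome 11, 70453983 to 70459984, minus strand) shares 18.3% of its exonic length with Zmynd15 on the other strand, and these counts ignore strand. Reads on the shared part fall on both genes and are counted for neither. Zmynd15 had between 35 and 126 counts per library, against 243 to 1581 for Cxcl16.

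Adam10 and Adam17, the proteases that shed Cxcl16, were lower in IRF8KO. Adam10 fell from 62.3 ± 18.2 to 12.3 ± 13.6 CPM and Adam17 from 99.4 ± 49.4 to 17.2 ± 11.1 CPM (SD, n = 3; edgeR quasi-likelihood, BH-adjusted p = 0.023 and 0.0051). IRF8KO replicate 2 had the most of both among the IRF8KO libraries, 27.9 and 29.9 CPM. Of 9 proteases known to shed or trim chemokines, 5 were tested, 2 were lower and none was higher, beside 9.46% and 9.64% of all genes. Without WT replicate 3, 3 of 6 were lower beside 15.4% of all genes, and with it as the only WT library none of 6 was, beside 4.95%. Cxcr6 itself had 2 counts in WT replicate 2 and none in any other library, which allows up to 3 counts in each of them, for counting error only.

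Ccl6 and Ccl9, neighbouring CC genes that macrophages make without stimulation and whose products bind Ccr1, were both lower in IRF8KO. Ccl6 had 208, 248 and 318 CPM in WT replicates 1, 2 and 3 and 26.8, 30.9 and 31.5 CPM in IRF8KO replicates 1, 2 and 3. The IRF8KO libraries were nearly alike, and WT replicate 3, which was low in Ccl2, Ccl3, Ccl4 and Ccl12, was the highest of all. The means of 258 ± 55.9 and 29.7 ± 2.53 CPM (SD, n = 3) were 8.68-fold apart, a log2 difference of −3.12 (SE 0.30, edgeR quasi-likelihood, BH-adjusted p = 4.0e-05). Ccl9 had 73.7, 105 and 121 CPM in WT and 18.5, 14.4 and 19.1 CPM in IRF8KO. Again WT replicate 3 was the highest and the groups were well apart, with a mean difference of 5.76-fold and a log2 difference of −2.53 (SE 0.31, same test, adjusted p = 2.1e-04). Both calls held in all 21 alternatives, where the largest BH-adjusted p (edgeR, DESeq2 or limma-voom) was 0.0020 and 0.013.

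The ratio of Ccl6 to Ccl9 was lower in IRF8KO. Within each library Ccl6 had 2.82, 2.36 and 2.63 counts per count of Ccl9 in WT replicates 1, 2 and 3, and 1.45, 2.14 and 1.65 in IRF8KO replicates 1, 2 and 3. These ratios do not depend on scaling and did not overlap between the groups, though with 3 libraries each no exact permutation test could pass 0.05. The genes lie on the minus strand of chromosome 11, Ccl9 (ENSMUSG00000019122) at 83572919 to 83578636 and Ccl6 (ENSMUSG00000018927) at 83587882 to 83593087, and share no exon with another gene. The transcripts closest to Ccl6 in pattern were Hps4 (distance 0.20), Pdia5 (0.24) and Slc2a5 (0.26). Hps4 takes part in the making of lysosome-related organelles, Pdia5 is a disulfide isomerase and Slc2a5 is a fructose transporter.

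The upstream sequences of Ccl6 (chr11:83593088-83593337) and Ccl9 (chr11:83578637-83578886), both minus strand of GRCm38.p6 and printed 5′ to 3′, are shown as a neighbouring pair that fell together. Capitals mark matches to the motifs listed for Pf4.
Ccl6: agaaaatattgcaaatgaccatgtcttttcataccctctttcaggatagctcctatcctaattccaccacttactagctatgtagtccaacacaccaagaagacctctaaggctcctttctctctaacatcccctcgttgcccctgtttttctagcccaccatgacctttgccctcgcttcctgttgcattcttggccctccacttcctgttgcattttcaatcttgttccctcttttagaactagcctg
Ccl9: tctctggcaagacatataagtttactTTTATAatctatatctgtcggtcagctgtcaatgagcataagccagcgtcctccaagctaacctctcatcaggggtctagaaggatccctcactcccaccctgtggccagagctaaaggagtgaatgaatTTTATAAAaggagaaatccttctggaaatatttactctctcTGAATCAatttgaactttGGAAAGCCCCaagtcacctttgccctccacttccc
In Ccl9 the capitals are TATA boxes on either strand, 1 AP-1 match from 53 to 47 bases before the start and 1 NF-kB match from 35 to 26 bases before it. The window of Ccl6 held no match to any of the motifs, which says only that these letters are not in it.

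Ccl5, which draws T cells and monocytes, was the single inducible chemokine called higher in IRF8KO. It had 7, 19 and 28 counts in WT replicates 1, 2 and 3 and 151, 221 and 259 counts in IRF8KO replicates 1, 2 and 3, or 1.36, 1.35 and 3.86 CPM against 24.2, 19.8 and 28.1 CPM. The groups were well apart, with WT replicate 3 the highest WT library. The log2 fold change was 3.46 (SE 0.52, edgeR quasi-likelihood, BH-adjusted p = 8.6e-04). Without WT replicate 3 the log2 fold change was 4.17 (adjusted p = 1.3e-04, same test), and against WT replicate 3 alone it was 2.64. Since T and NK cells hold much Ccl5 transcript, their markers were read beside it. Of 12 such genes, Cd3e, Cd3g, Cd8a, Gzma, Gzmb and Ncr1 were at 0 counts in all libraries, and the list summed to between 4.17 and 5.74 CPM in IRF8KO, most of it Cd4, which macrophages can also make. In WT the list summed to at most 0.142 CPM. The part of T and NK cells in the Ccl5 result was not tested. The gene (ENSMUSG00000035042) lies on chromosome 11 at 83525778 to 83530518, minus strand, in 1 cluster with Ccl9, Ccl6, Ccl3 and Ccl4.

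Ccl3 and Ccl4, neighbouring genes whose products attract monocytes and T cells, were called lower in IRF8KO, although 1 of the 3 WT libraries lay near the IRF8KO level. Ccl3 had 134, 267 and 21.6 CPM in WT replicates 1, 2 and 3 and 25.8, 7.45 and 12.4 CPM in IRF8KO replicates 1, 2 and 3. WT replicate 3 thus lay below IRF8KO replicate 1, and the groups overlapped. With all libraries the log2 fold change was −3.23 (SE 0.73, edgeR quasi-likelihood, BH-adjusted p = 0.0097). Ccl4 had 190, 463 and 55.8 CPM in WT and 81.4, 21.1 and 25.8 CPM in IRF8KO. Its groups overlapped in the same way, and its log2 fold change was −2.48 (SE 0.69, same test, adjusted p = 0.026). Ccl4 counts exceeded Ccl3 counts in every library, by 1.42 and 1.74 times in WT replicates 1 and 2, 2.58 times in WT replicate 3 and 2.09 to 3.15 times in IRF8KO. The genes lie on chromosome 11, Ccl3 (ENSMUSG00000000982) at 83647844 to 83649355 on the minus strand and Ccl4 (ENSMUSG00000018930) at 83662584 to 83664683 on the plus strand.

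Ccl2, the main ligand of Ccr2 and an attractant of monocytes, behaved like Ccl3 and Ccl4. It had 24.5, 79.8 and 4.27 CPM in WT replicates 1, 2 and 3 and 7.70, 3.14 and 4.34 CPM in IRF8KO replicates 1, 2 and 3. WT replicate 3 was inside the IRF8KO range. The gene (ENSMUSG00000035385) lies on chromosome 11 at 82035571 to 82037453, plus strand. The log2 fold change with all libraries was −2.87 (SE 0.79, edgeR quasi-likelihood, BH-adjusted p = 0.026). Ccl7, its neighbour and another ligand of Ccr2, had 29, 248 and 8 counts in WT and 14, 9 and 13 in IRF8KO and was not called (log2 fold change −2.48, SE 0.87, same test, adjusted p = 0.066). By root mean square distance the transcripts most like Ccl3 were Ppp1r15a (0.29), Ccl4 (0.40) and Ccl2 (0.44). Ppp1r15a encodes a phosphatase subunit of the stress response.

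Ccl12 (ENSMUSG00000035352, chromosome 11, 82101845 to 82103400, plus strand), which also acts on Ccr2 and lies in the Ccl2 cluster, did not follow the other 3. It had 99.8, 160 and 27.7 CPM in WT replicates 1, 2 and 3 and 93.3, 56.5 and 85.2 CPM in IRF8KO replicates 1, 2 and 3. The groups overlapped, with both the highest and the lowest value in WT. Its log2 fold change was −0.29, with a 95% interval from −1.35 to 0.77 (edgeR quasi-likelihood, BH-adjusted p = 0.712). Per count of Ccl2 there were 4.07, 1.999 and 6.48 counts of Ccl12 in WT and 12.1, 18 and 19.7 in IRF8KO, with no overlap, so the pair changed unequally whatever the scaling. Of the other genes of this cluster of 6, Ccl11, Ccl8 and Ccl1 were at 0 counts in all libraries.

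The size of the difference in these 4 genes depended on which WT libraries were used. Without WT replicate 3, the log2 fold changes of Ccl2, Ccl3, Ccl4 and Ccl12 were −3.38, −3.74, −2.95 and −0.71 (edgeR quasi-likelihood, BH-adjusted p = 0.0010, 2.6e-04, 0.0024 and 0.056). With WT replicate 3 as the only WT library they were 0.23, −0.53, −0.40 and 1.497, with adjusted p of 0.890, 0.632, 0.720 and 0.030 by the same test, where the lone library is assumed to vary like the IRF8KO libraries. Ccl12 was therefore called higher in IRF8KO in that comparison. Leaving out WT replicate 2 brought Ccl2 and Ccl4 to −1.52 and −1.54 and ended their calls (adjusted p of 0.204 and 0.110). In that fit Ccl3 was at −2.37 and stayed called (adjusted p = 0.029, same test). Leaving out IRF8KO replicate 3 ended the calls of Ccl2, Ccl3 and Ccl4 with the folds little moved, at −2.75, −3.08 and −2.20 (adjusted p of 0.139, 0.084 and 0.154). Without IRF8KO replicate 2, Ccl2 and Ccl4 were at −2.60 and −2.13 (0.074 and 0.077), and without IRF8KO replicate 1, Ccl2 was at −3.27 (0.064), none of them called. Ccl4 was at −3.32 without IRF8KO replicate 1 and stayed called (adjusted p = 0.022, same test). Correction for gene GC content also ended the call of Ccl2 (log2 fold change −2.03, adjusted p = 0.066). In contrast, Pf4, Ccl5, Ccl6 and Ccl9 kept their direction and call in each of these fits.

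**Figure D2:**
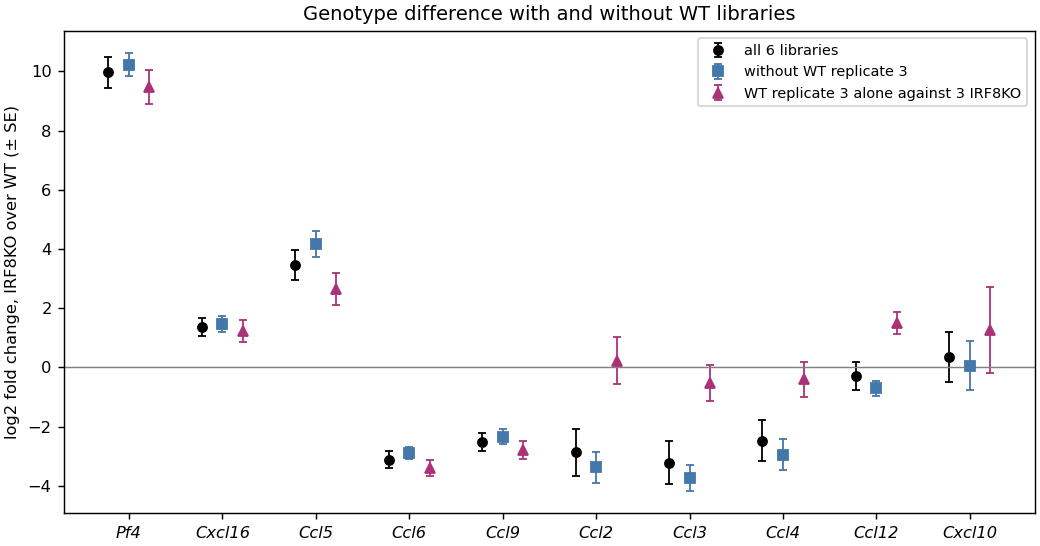
Log2 fold change of IRF8KO over WT for each chemokine, with bars of 1 SE, from edgeR fits to all 6 libraries (black), without WT replicate 3 (blue) and with WT replicate 3 as the only WT library (purple). Ccl2, Ccl3 and Ccl4 move from between −2.95 and −3.74 without WT replicate 3 to between −0.53 and 0.23 against it alone, while Pf4, Ccl5, Ccl6 and Ccl9 keep their direction.

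Many genes that mark handling of cells were also high in WT replicates 1 and 2 and low in WT replicate 3. Of 26 immediate early and handling genes, 22 were tested, 14 were lower and 1, Fosl2, was higher in IRF8KO, beside 9.46% and 9.64% of all genes tested, with a median log2 fold change of −2.21 against −0.11. In the fit without WT replicate 3, 18 of 23 were lower and 1 was higher, beside 15.4% and 18.1% of all genes. Without WT replicate 2, 4 of 22 were lower and 1 was higher, beside 4.91% and 5.54%, so fewer genes were called both in the list and over all genes. Without IRF8KO replicate 2, 7 of 23 were lower and 1 was higher, beside 9.14% and 8.42%. With WT replicate 3 as the only WT library none of 22 was lower and 4 were higher, beside 4.95% and 5.32%. Those with the smallest p-values among the lower ones were Egr1, Klf2, Jun and Atf3. Egr1, an immediate early transcription factor, had 549, 1211 and 12.7 CPM in WT replicates 1, 2 and 3 and 4.82, 5.56 and 4.12 CPM in IRF8KO. Jun, a subunit of AP-1, had 736, 1545 and 49.8 CPM in WT and 29.5, 48.2 and 54.4 CPM in IRF8KO. Fos, the partner of Jun, chosen after its values were seen, had 643, 880 and 0.138 CPM in WT and 21.8, 11.2 and 17.6 CPM in IRF8KO. In each of these genes WT replicates 1 and 2 were high, and WT replicate 3 was far lower, above the IRF8KO libraries for Egr1, within their range for Jun and below them for Fos. The part of handling of the cells in the differences of Ccl2, Ccl3 and Ccl4 was not tested.

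**Figure D3:**
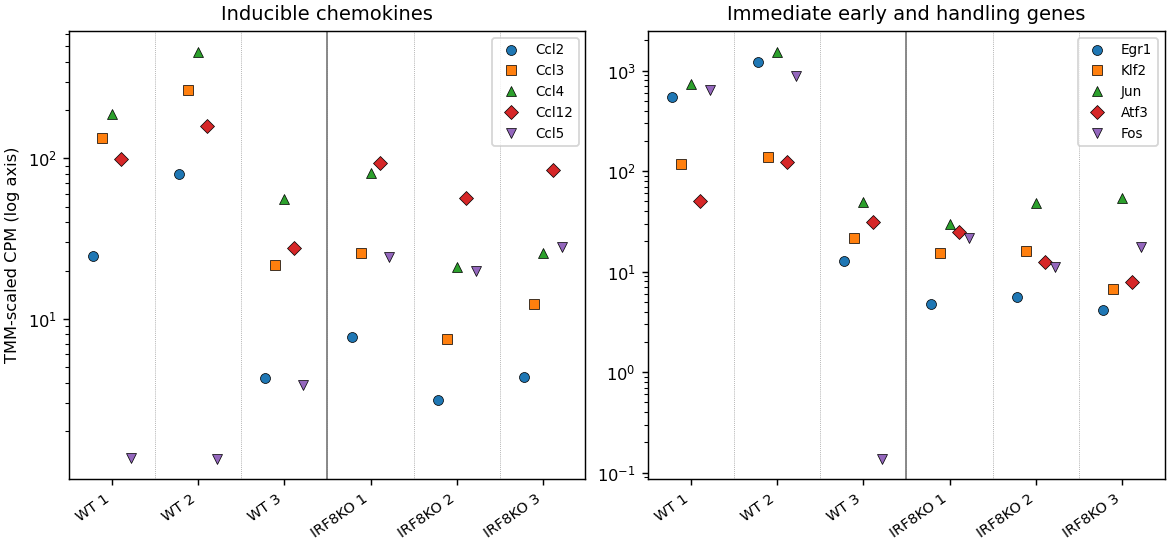
Scaled CPM (log axis) in each library of 5 inducible chemokines on the left and of Egr1, Klf2, Jun, Atf3 and Fos on the right, with a solid line between WT and IRF8KO. WT replicates 1 and 2 are above the IRF8KO libraries in both panels for all genes but Ccl5, and WT replicate 3 lies near the IRF8KO libraries for Ccl2, Ccl3, Ccl4, Klf2, Jun and Atf3.

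Cxcl10 (ENSMUSG00000034855, chromosome 5, 92346638 to 92348889, minus strand), an interferon-induced ligand of Cxcr3, was scarce in both groups. It had 11, 17 and 5 counts in WT replicates 1, 2 and 3 and 14, 9 and 19 counts in IRF8KO replicates 1, 2 and 3, or between 0.689 and 2.25 CPM in all libraries. The groups overlapped throughout, and the log2 fold change of 0.35 had a 95% interval from −1.47 to 2.174 (edgeR quasi-likelihood, BH-adjusted p = 0.805). Its direction turned under scaling by library size alone, to −0.30. In the cluster of 3 on chromosome 5 that holds it, Cxcl9 had at most 5 counts in any library and Cxcl11 was at 0.

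Some other interferon and NF-kB genes were called. Of 26 interferon response genes, 24 were tested, 9 were higher, 15 were not called and none was lower in IRF8KO, with a median log2 fold change of 1.18 (13 higher of 24 without WT replicate 3, where 18.1% of all genes were). Over all genes tested, 9.64% were higher and 9.46% lower. The smallest p-values were those of Irf7, Oas1a, Rtp4 and Ifit3, and Irf7, the factor that amplifies interferon production, had a log2 difference of 3.01 (SE 0.28, edgeR quasi-likelihood, BH-adjusted p = 3.6e-05). Of 20 NF-kB feedback genes and cytokines, 18 were tested, 6 were higher, 2 were lower and 10 were not called. When WT replicate 3 was left out, 7 were higher and 5 lower of 19, beside 18.1% and 15.4% of all genes. Without IRF8KO replicate 2, 6 were higher and 4 lower of 19, beside 8.42% and 9.14%, and without WT replicate 2, 4 and 1 of 18, beside 5.54% and 4.91%. Bcl3, Nfkb2, Il1b and Relb led the higher ones, with log2 fold changes of 3.37, 2.07, 3.63 and 1.66, and the lower ones were Il1a and Nfkb1, at −3.47 and −1.03.

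The upstream sequence of Cxcl10 (chr5:92348890-92349139, minus strand, GRCm38.p6, printed 5′ to 3′) is shown because it holds both kinds of element next to a transcript for which no difference was called. Capitals mark, in order, the interferon-stimulated response element, an NF-kB match, 2 overlapping NF-kB matches, an AP-1 match and a GATA element.
Cxcl10: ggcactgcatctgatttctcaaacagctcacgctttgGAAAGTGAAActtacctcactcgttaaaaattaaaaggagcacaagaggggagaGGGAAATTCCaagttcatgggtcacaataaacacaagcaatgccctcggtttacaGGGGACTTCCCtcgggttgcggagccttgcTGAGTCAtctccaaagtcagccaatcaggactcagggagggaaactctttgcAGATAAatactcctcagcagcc
The response element lies from 213 to 204 bases before the start, the NF-kB matches from 159 to 150 and from 104 to 94, and the AP-1 match from 74 to 68.

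Per kb of exonic length, the order of the 10 genes differed between the groups. This length joins the exons of all annotated transcripts of a gene, so the order within a group also depends on the annotation. In WT the means in CPM per kb of exonic length were 358 ± 314 for Ccl4, 184 ± 160 for Ccl3, 178 ± 123 for Ccl12 and 144 ± 31.1 for Ccl6, and these neighbours did not differ beyond their spread. The order in WT replicate 3 was another one, with Ccl6 first at 177, then Ccl4 at 84.6, Ccl12 at 51.6, Ccl9 at 39.7 and Ccl3 at 28.3 CPM per kb. Ccl9, Ccl2 and Cxcl16 followed at 32.8 ± 7.86, 31.8 ± 34.4 and 21.01 ± 4.68 CPM per kb. Pf4, Ccl5 and Cxcl10 came last at 2.49 ± 1.30, 2.28 ± 1.51 and 0.597 ± 0.327 CPM per kb. In IRF8KO Pf4 led at 2609 ± 446 CPM per kb, beyond the spread of the next, Ccl12, at 146 ± 36.0. Ccl4 and Cxcl16 had 64.8 ± 50.8 and 54.2 ± 15.5 CPM per kb and could not be told apart. Below them were Ccl5 at 25.1 ± 4.30, Ccl3 at 19.9 ± 12.4, Ccl6 at 16.6 ± 1.41, Ccl9 at 5.69 ± 0.827, Ccl2 at 4.45 ± 2.08 and Cxcl10 at 0.757 ± 0.348 CPM per kb (SD, n = 3).

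The makeup of the chemokine counts changed with these levels. Together the 10 genes took 0.110%, 0.182% and 0.0572% of all gene counts in WT replicates 1, 2 and 3 and 0.168%, 0.185% and 0.212% in IRF8KO replicates 1, 2 and 3. Pf4 made up 79.9%, 85.1% and 85.1% of the 10 genes' counts in the IRF8KO libraries and at most 0.419% in WT. Without Pf4, the other 9 took between 0.0570% and 0.182% of gene counts in WT and between 0.0274% and 0.0337% in IRF8KO, with no overlap. The inducible 6 made up 57.8% and 69.4% of the 10 genes' counts in WT replicates 1 and 2 and 18.2% in WT replicate 3, where Ccl6 alone made up 50.9%. Apoe took between 25.5% and 33.7% of all gene counts in IRF8KO and at most 0.324% in WT, so shares of gene counts are not comparable to TMM-scaled levels.

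**Figure D4:**
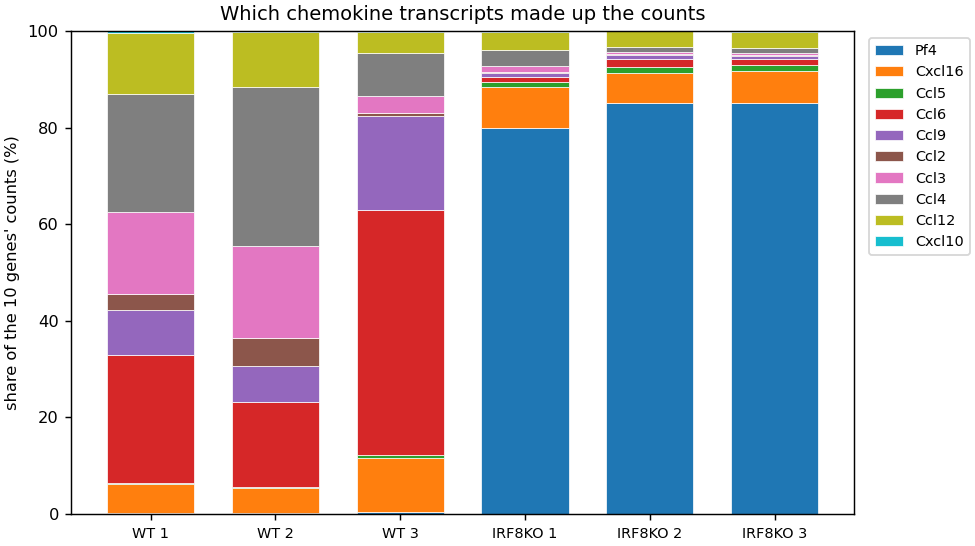
Share of the 10 chemokine genes' summed counts taken by each gene (percent, stacked to 100) in each WT and IRF8KO library. Pf4 fills 79.9% to 85.1% of the IRF8KO bars, Ccl6 fills 50.9% of WT replicate 3, and Ccl3 and Ccl4 are wide in WT replicates 1 and 2 only.

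Of 28 further ligands, 13 were at 0 counts in all libraries and 7 were tested, of which 3 were higher and none lower in IRF8KO, beside 9.64% and 9.46% of all genes tested. Cxcl14 and Cx3cl1 were near 0 in WT and had enough counts for the test through IRF8KO, so their direction was set by the filter. Without WT replicate 3, 4 were higher and 1 lower of 8 tested, beside 18.1% and 15.4% of all genes, and with it as the only WT library 3 were higher and none lower of 9, beside 5.32% and 4.95%. Cxcl14 had 0, 4 and 10 counts in WT replicates 1, 2 and 3 and 773, 997 and 1322 in IRF8KO replicates 1, 2 and 3 (log2 fold change 7.73, SE 0.64, edgeR quasi-likelihood, BH-adjusted p = 1.3e-05). Ccl24, which attracts eosinophils through Ccr3, had 24, 57 and 56 counts in WT and 490, 592 and 626 in IRF8KO (log2 fold change 3.61, SE 0.36, same test, adjusted p = 5.3e-05). Cx3cl1, the ligand of Cx3cr1, reached 6.36 ± 0.613 CPM in IRF8KO against 1.05 ± 0.730 CPM in WT (adjusted p = 0.030, same test).

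Few receptors had enough counts to be tested. Of 25 receptors, 8 were tested, 2 were lower and 2 higher in IRF8KO, beside 9.46% and 9.64% of all genes tested, with a median log2 fold change of −1.38. With WT replicate 3 left out there were 3 lower and 2 higher of 12 tested (median 0.03), beside 15.4% and 18.1% of all genes. With it as the only WT library there were 2 lower and 1 higher of 12 (median 1.02), beside 4.95% and 5.32%. Cx3cr1, the fractalkine receptor of microglia, fell from 2631 ± 205 to 589 ± 138 CPM (SD, n = 3; log2 fold change −2.16, SE 0.33, edgeR quasi-likelihood, BH-adjusted p = 9.6e-04). Ackr3, a scavenging receptor, rose from 0.496 ± 0.858 to 34.1 ± 12.2 CPM, and Cxcr2, the receptor of Cxcl1 and Cxcl2, had 0 counts in WT and 10, 46 and 16 in IRF8KO, where its highest value was in the library with neutrophil transcripts. Both were at or near 0 in WT and had enough counts for the test through IRF8KO, so their direction was set by the filter. Ccr1, which binds Ccl6 and Ccl9, had 45, 81 and 36 counts in WT and 11, 25 and 0 in IRF8KO and was not called (log2 fold change −2.26, SE 0.94, same test, adjusted p = 0.112). Cxcr3 was not called either (log2 fold change −1.46, adjusted p = 0.205 by the same test), and Ccr2 had at most 12 counts in any library.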

How the data were processed

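Microglial RNA of 3 WT and 3 IRF8KO mice was copied with the SMART-Seq v4 kit and tagged with Nextera XT, per the labels' protocols. The libraries had no strand information or molecular identifiers. Floors for a count of 0 cover counting error only, while the 95% intervals also hold the spread between libraries. The authors deposited raw counts per gene in STAR's layout. Per the submitters' processing notes the tools included STAR 2.5.2b and Picard 2.17.11 and the build was mm10; the annotation release is not given in the sources used here. The count that ignores strand was used, without the 4 summary lines (at most 10.8% of unique reads fell on several genes). Symbols and positions came from GENCODE M21 (GRCm38), which matched 49326 of 49585 genes. Upstream sequences are from RefSeq (GRCm38.p6).

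Tests used edgeR 4.0.16 with R 4.3.3 (minimum count 10, TMM, quasi-likelihood F test, genotype as the single term, Benjamini-Hochberg over 11041 genes, called under 0.05). In simulated data on 10773 genes, 58.2% of 4-fold and all of 16-fold changes were recovered. The simulation gave every gene the same spread and held no library that stood apart. These rates therefore do not give the power for the chemokines. SEs come from the F statistic. Pairs of libraries within a group differed beyond sampling noise (chi-square per degree of freedom of at least 8.57). DESeq2 1.42.0, limma 3.58.1, other scalings, filters, strand columns, a GC offset and left-out libraries were alternatives. The chemokines and gene lists were chosen with earlier results of these data known. The genes named are the 10 chemokines and, of each list, at most 4 per direction with the smallest p-values, partner receptors, cluster neighbours and the 3 nearest patterns of Pf4, Ccl6 and Ccl3. Marker lists give the 3 most abundant genes and those at 0. Some genes that this rule names are not reported here.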

Additional observations from a re-analysis of the deposited data

How the results depend on the processing

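Of the 8 called chemokines, Pf4 and Ccl5 kept direction and call in the 20 alternatives that tested them, and Ccl6 and Ccl9 in all 21. Cxcl16, Ccl3 and Ccl4 fell below the threshold in 4, 2 and 4 of 21, and Ccl2 in 8 (in 1 of them with its sign turned), with adjusted p (Benjamini-Hochberg; edgeR or limma-voom) up to 0.064, 0.632, 0.720 and 0.890. Leaving out 1 library at a time gave 910 to 4003 called genes (2109 with all), 2 to 3 chemokines higher and 2 to 5 lower. With WT replicate 3 as the only WT library, chosen after seeing the data, 1245 genes were called, 2 chemokines were lower, and Ccl2 and Ccl12 turned to 0.23 and 1.497 on the log2 scale. Without WT replicate 3 and IRF8KO replicate 2, also chosen after seeing the data, 5228 genes were called. Requiring at least 10 counts in every library left 1 chemokine higher, since Pf4 and Ccl5 were then not tested. Ccl12, called in the fit against WT replicate 3 alone and in no other, also turned with limma-voom (5.3e-04), a GC offset (0.69) and the replicate block with a GC offset (0.71), and with 1 library left out it ranged from −0.71 to 0.29, above 0 without WT replicate 2 alone. Cxcl10 turned with library size alone (−0.30). The causes were not tested, beyond what each alternative removes. The replicate block gave 2353 calls and kept all 8 chemokine calls. Deviations of same-numbered libraries correlated at −0.26, 0.33 and 0.11, and not every library correlated best with its own number. With so few libraries this cannot settle whether the numbers pair the animals. Of 40 mean CPM values recomputed without TMM, 6 moved by over 1 SD, all 6 in IRF8KO. Depth limits Cxcl10, Ppbp and the receptors at a few counts per library.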
